A study of Mus musculus with 6 samples.

Results

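The genes carried by the mitochondrial chromosome were examined in motor neuron progenitors made from C57BL/6 mouse embryonic stem cells. Members were all genes whose symbol starts with mt-, which gave 37 of the 55400 genes in the deposited table: 13 mRNA, 2 rRNA and 22 tRNA genes. Polyadenylated RNA was sequenced from 3 libraries labelled control and 3 labelled Setd5sh, all of wild-type genotype and all taken on day 4. In both groups 500 cells seeded each embryoid body, all-trans retinoic acid at 1 μM and the hedgehog agonist SAG at 0.5 μM were given from day 2, the medium was renewed on day 3, and 1 μg/mL doxycycline was added 36 h before harvest. The stem cells had been kept on mouse embryonic fibroblasts. The labels do not state what the control libraries carry, how many clones or hairpins were used, or whether each replicate was its own culture, and the spread behind every p-value may thus be technical. Total counts ranged from 19639303 to 32046466 per library.

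The mitochondrial chromosome of mammals encodes core subunits of the respiratory chain and of ATP synthase, together with the rRNAs and tRNAs needed to translate them. Both strands are transcribed as long precursors by the polymerase Polrmt with the factor Tfam, and the tRNAs that lie between the other genes are cut out to release mRNAs and rRNAs. Most of the mRNAs then receive a short poly(A) tail, which completes the stop codon where the gene ends within it, while tRNAs receive CCA instead. Copies of mitochondrial DNA also lie in nuclear chromosomes, where they are annotated as pseudogenes. Setd5 encodes a chromatin-associated SET domain protein.

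The gene models fall into groups by their ends and by their likeness to nuclear copies. Among the 13 mRNA genes 8 end in TAA, 2 in TAG (mt-Nd1 and mt-Nd2) and 3 in a lone T. The last 30 bases of those 3 are printed to show where a tail must complete the codon, with the final base in capitals.

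mt-Nd4: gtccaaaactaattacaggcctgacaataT

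mt-Cytb: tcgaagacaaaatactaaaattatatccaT

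mt-Co3: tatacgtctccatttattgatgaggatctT

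Genes also overlap. The last 60 bases of mt-Atp8 are printed because the 43 in capitals also belong to mt-Atp6, so that a read from them fits both genes; mt-Nd4l and mt-Nd4 share 7 bases, and mt-Nd5 and mt-Nd6, on opposite strands, share 14.

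mt-Atp8: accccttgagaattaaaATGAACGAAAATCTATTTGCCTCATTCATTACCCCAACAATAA

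A run of pseudogenes on chromosome 1 (mm10, positions 24611535 to 24616197, minus strand) copies the mitochondrial stretch from position 6390 to 11042. The mRNA genes of mt-Co2, mt-Atp8, mt-Atp6, mt-Co3, mt-Nd3 and mt-Nd4l lie wholly inside that stretch. Those of mt-Co1 and mt-Nd4 cross its borders, with 1062 and 502 bases outside it, and those of mt-Nd1, mt-Nd2, mt-Nd5, mt-Nd6 and mt-Cytb lie outside. Over the aligned bases the copies of mt-Co2 (Gm28661), mt-Atp6 (Gm10925), mt-Co3 (Gm28437), mt-Nd4l (Gm10222) and the first 876 bases of mt-Nd4 (Gm28439) were identical to the mitochondrial genes. The copy of mt-Nd3 (Gm28438) differed by 1 base in 345, T3C counted from the first base of the gene. The first 33 bases of both are printed with that base in capitals, to show how little separates a read of one from a read of the other.

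mt-Nd3: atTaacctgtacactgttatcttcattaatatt

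Gm28438: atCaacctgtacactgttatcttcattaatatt

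The last 483 bases of mt-Co1 differed from Gm29216 by A1066T alone, shown in capitals within the first 34 bases that they share.

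mt-Co1: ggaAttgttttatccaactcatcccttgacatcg

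Gm29216: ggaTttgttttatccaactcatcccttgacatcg

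At the other border, 30 bases of mt-Nd4 before the end of the copied part are printed in lower case and the 30 bases past it in capitals.

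mt-Nd4: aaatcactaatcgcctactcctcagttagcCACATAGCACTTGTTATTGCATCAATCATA

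Sequences and positions are those of GENCODE release M21 transcripts on mm10. The search covered annotated transcripts alone, at an identity of at least 95% over at least 50 bases.

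Setd5 mRNA, the target of the knockdown, was 22.21, 18.79 and 16.74 FPKM (the fragment count scaled by exon length and library total, as the authors deposited it) in the control libraries and 14.41, 13.45 and 12.92 FPKM in the Setd5sh libraries. The groups did not overlap, with means of 19.2 ± 2.76 and 13.6 ± 0.755 (SD, n = 3 each), and an exact two-sided permutation test gave p = 0.1, the smallest p that 3 against 3 allows. In edgeR's quasi-likelihood test the log2 difference was -0.51 ± 0.164 (SE) with an adjusted p of 0.995, and without control replicate 1 it was -0.36 ± 0.134. Motor neuron progenitor markers (Olig1, Olig2, Nkx6-1, Nkx6-2, Pax6 and Sox2) summed to 254 to 288 FPKM in control and 292 to 340 FPKM in Setd5sh libraries, without overlap. Of these markers, 6 of 6 were at a mean of 1 FPKM or more. Fibroblast markers summed to 5.28 to 9.13 FPKM, with 2 of 7 at a mean of 1 FPKM or more, and with Lum and Postn under 0.1 FPKM in every library. Pluripotency markers were highest in the libraries numbered 2, with sums of 12.6 (control) and 8.99 FPKM (Setd5sh), against 0.78 to 3.22 FPKM in the other 4. Of these, 2 of 4 were at a mean of 1 FPKM or more. Mesoderm markers summed to 3.42 to 8.88 FPKM, with 1 of 4 at that level, and endoderm markers to 4.48 to 5.74 FPKM, with 3 of 4. Young neuron markers (Tubb3, Mnx1, Isl1, Elavl3 and Dcx) summed to 38.2, 43.4 and 41.0 FPKM in control and 68.6, 52.3 and 68.5 FPKM in Setd5sh libraries. These groups did not overlap, and 4 of 5 of the markers were at a mean of 1 FPKM or more. Taken singly, 5.21% of all genes tested had groups that did not overlap. A sum can rest on its most abundant genes, and values of single markers are not given here. The part of the differences in progenitor and young neuron markers in the results below was not tested. Control replicate 1 stood apart in Malat1, a nuclear-retained RNA, at 213 FPKM against 22.2 to 41.0 in the other 5 libraries. Neat1, also nuclear-retained, did not set it apart, at 2.1 FPKM there, 1.96 FPKM in Setd5sh replicate 2 and 0.31 to 1.42 FPKM elsewhere. The mean GC content per count of control replicate 1 was 48.65% against 49.93% to 50.62%. Differences between groups were therefore also computed without that library. In bulk RNA, fewer cells of a type and less RNA per cell cannot be told apart.

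Mitochondrially encoded genes took 2.18%, 0.748% and 0.946% of all counts in the control libraries, listed here and below as replicates 1, 2 and 3. In the Setd5sh libraries, in the same order, they took 0.844%, 0.718% and 1.41%. Control replicate 1 was the highest of the 6 and Setd5sh replicate 3 the next, and the groups overlapped. The means were 1.29 ± 0.777% and 0.99 ± 0.367% (SD, n = 3 each), a difference of -0.303 percentage points that is smaller than either SD. Leaving out control replicate 1 turned the difference to 0.142 points. Wilson 95% intervals extended at most 0.00521 points to either side of a share, so counting error, which is all they cover, is small beside the spread between libraries. The mRNAs held nearly all of these counts, at 2.15%, 0.737% and 0.931% in control and 0.830%, 0.706% and 1.38% in Setd5sh libraries. The rRNAs held 0.0291%, 0.0101% and 0.0135% in control and 0.0126%, 0.0103% and 0.0228% in Setd5sh libraries, again highest in control replicate 1 and next in Setd5sh replicate 3. For the tRNAs the shares were 0.000883%, 0.0015% and 0.00117% in control and 0.000728%, 0.00157% and 0.00231% in Setd5sh libraries, and control replicate 1 was not high among them.

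**Figure D1:**
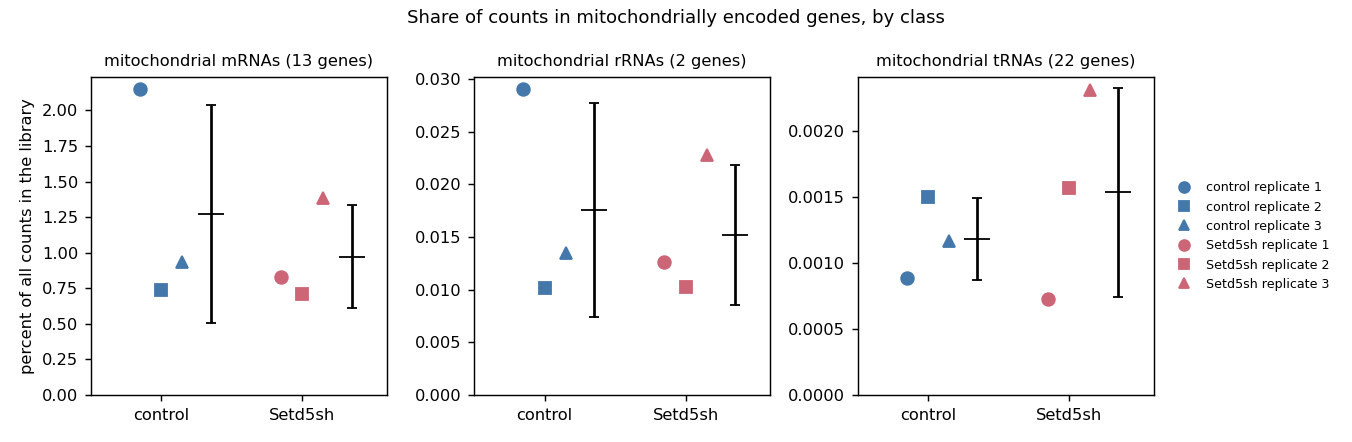
Share of all counts held by mitochondrial mRNAs, rRNAs and tRNAs (y axis, percent, a separate scale in each panel) in the control and Setd5sh libraries. Each symbol is a library and the black bars are the mean ± SD of 3; control replicate 1 is the highest library for mRNAs and rRNAs, and Setd5sh replicate 3 for tRNAs.

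Where a gene lies relative to the chromosome 1 copy went with its level per length. The 5 mRNAs outside the copied stretch had mean levels over the 6 libraries of 315 (mt-Nd6) to 1639 FPKM (mt-Cytb), and the 6 inside it 3.38 (mt-Nd4l) to 33.2 FPKM (mt-Co2). The lowest gene outside was 9.47 times the highest inside, and the ratio of the medians was 82.6. The genes that cross the borders were at 3473 FPKM (mt-Co1) and 443 FPKM (mt-Nd4), and all counts set against the bases outside the stretch would give 3400 to 9160 for mt-Co1 and 729 to 2440 for mt-Nd4 across libraries. Position on the chromosome, sequence identity with the copy and gene length differ together between these genes. How the authors counted reads that match more than 1 place is not given in the sources used, and its part in the low levels was not tested. The levels of the 6 inside genes are thus uncertain, and so is any comparison of their levels with those of other genes.

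**Figure D2:**
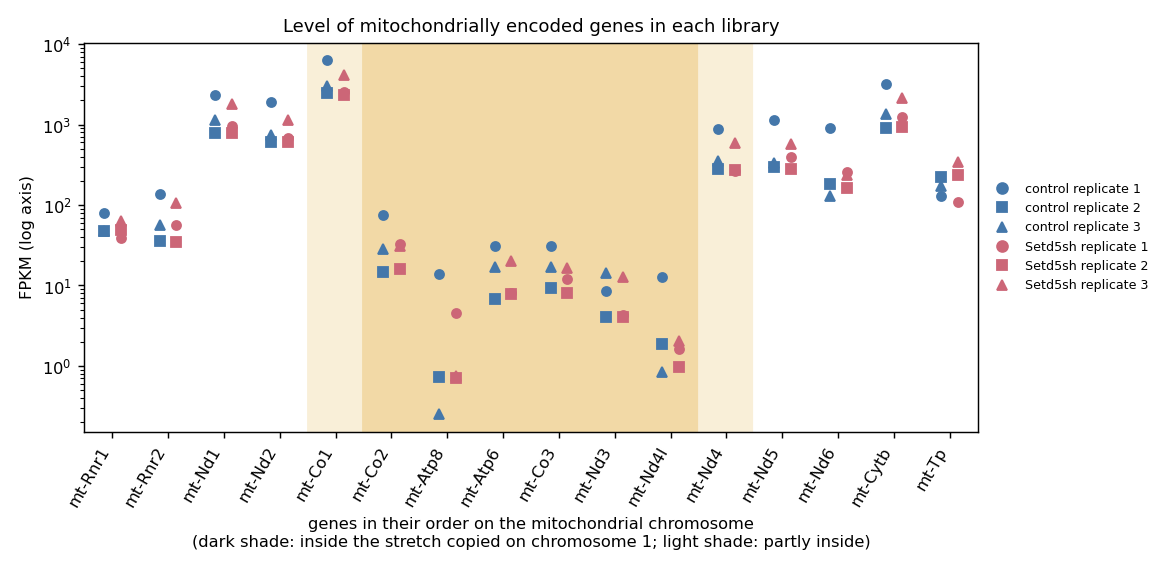
Level of the 16 mitochondrially encoded genes with a mean of at least 1 FPKM in each library (y axis, FPKM, log axis), ordered along the mitochondrial chromosome (x axis). The 6 mRNAs in the dark shaded stretch have means of 3.38 to 33.2 FPKM and the 5 unshaded mRNAs means of 315 to 1639 FPKM.

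The counts given to the chromosome 1 copies were compared with those of the genes themselves. Of the 6 inside genes, mt-Atp8 matched no annotated copy. mt-Co2 had 1656, 272 and 392 counts in control and 463, 307 and 422 in Setd5sh libraries, and Gm28661 had 1742, 263 and 389 and then 456, 248 and 408. Their ratio stayed between 0.951 and 1.24 in every library and was 1.0 over the summed counts. For mt-Co3 over Gm28437 the ratio ran from 0.732 to 1.0, for mt-Nd4l over Gm10222 from 0.267 to 1.5 on few counts, and for mt-Atp6 over Gm10925 from 0.345 to 0.553. mt-Nd3 was lowest against its copy, at 0.0853 to 0.237. The border genes differed from this, with 583 to 854 counts of mt-Co1 for each of Gm29216 and 92.5 to 182 of mt-Nd4 for each of Gm28439. Control replicate 1 had the highest FPKM among the libraries for 6 of the 7 copies, as it did for the mitochondrial mRNAs, the exception being Gm28438. With the counts of these copies added to their genes, none of the 16 tested members passed, and the count over all genes is not given for that fit. The log2 difference moved from -1.83 to -1.19 for mt-Nd4l and from -0.37 to -0.21 for mt-Nd3, while the other 5 genes with a copy moved by under 0.1.

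**Figure D3:**
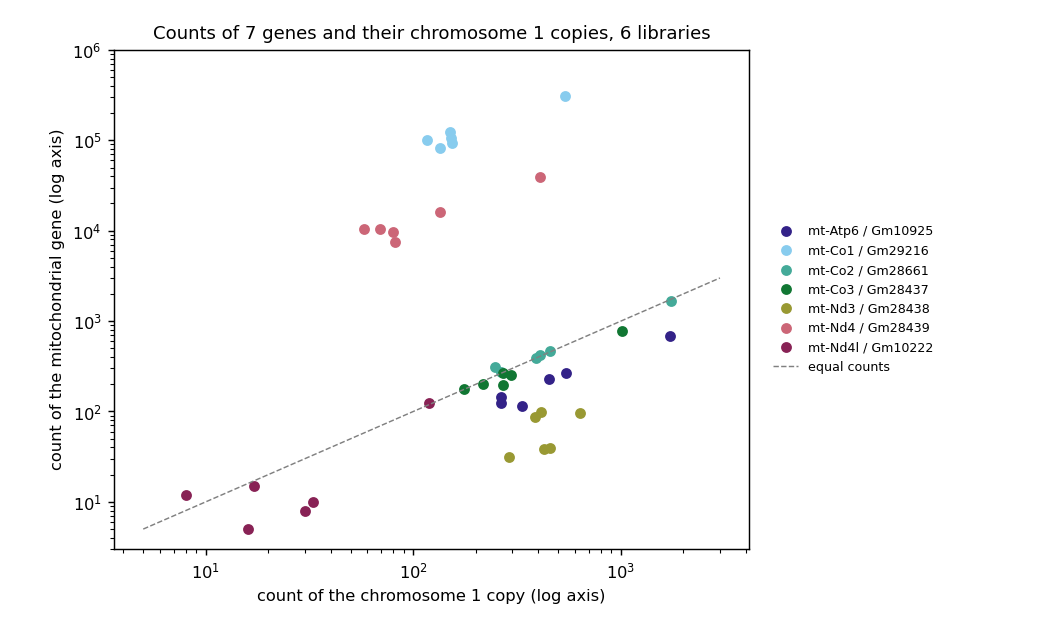
Counts of 7 mitochondrial genes (y axis, log axis) against counts of their chromosome 1 copies (x axis, log axis), with 1 point per library. Points of mt-Co2 lie along the dashed line of equal counts, while mt-Co1 and mt-Nd4, which reach outside the copied stretch, lie 92.5 to 854 times above it.

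Complex I, which takes electrons from NADH, has 7 mitochondrially encoded subunits. mt-Nd1 was 2364, 794 and 1152 FPKM in control and 966, 792 and 1806 FPKM in Setd5sh libraries. mt-Nd2 was 1920, 606 and 749 FPKM, and then 688, 603 and 1154 FPKM. mt-Nd5 was 1140, 297 and 332 FPKM, and then 397, 282 and 580 FPKM. In all of these, control replicate 1 was highest, Setd5sh replicate 3 next, and the libraries numbered 2 lowest in their groups, so the groups overlapped. mt-Nd4, which crosses the border of the copied stretch, was 890, 282 and 349 FPKM in control and 266, 276 and 594 FPKM in Setd5sh libraries. mt-Nd6, the sole mRNA on the opposite strand, was 914, 183 and 130 FPKM in control and 260, 163 and 239 FPKM in Setd5sh libraries. Whether counting used strand is not stated, so these values may include reads from the other strand at the same place. Control replicate 1 was 3.52 times the next library for mt-Nd6, the largest such step among the 5 mRNAs outside the stretch, and for the other 4 it was 1.31 to 1.97 times. The remaining subunits had few counts: mt-Nd3 had 95, 38 and 98 in control and 31, 39 and 86 in Setd5sh libraries. mt-Nd4l had 123, 15 and 5 in control and 10, 8 and 12 in Setd5sh libraries, so nearly all of its control counts came from replicate 1.

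mt-Cytb, the mitochondrially encoded subunit of complex III, was 3191, 920 and 1358 FPKM in control and 1262, 930 and 2173 FPKM in Setd5sh libraries. The catalytic subunit of complex IV, mt-Co1, had the highest level of all members, at 6296, 2509 and 3025 FPKM in control and 2560, 2338 and 4112 FPKM in Setd5sh libraries. It alone supplied 45.2% to 52.6% of mitochondrial mRNA counts. Its partners mt-Co2, at 14.64 to 75.55 FPKM, and mt-Co3, at 8.12 to 31.20 FPKM, lie inside the copied stretch, as do both ATP synthase subunits. mt-Atp6 was 31.34, 6.76 and 16.92 FPKM in control and 8.15, 7.75 and 19.89 FPKM in Setd5sh libraries. mt-Atp8 had 90, 4 and 1 counts in control and 19, 4 and 3 in Setd5sh libraries, where both libraries numbered 1 stood out. For complexes I, III and IV the make-up of the mRNA pool varied less than its size: complex I genes took 32.6% to 37.4% of mitochondrial mRNA counts, mt-Cytb 14.3% to 18.0%, complex IV genes 45.6% to 52.8% and ATP synthase genes 0.0645% to 0.124%. Group means of these shares differed by less than the larger of their SDs, for example 34.3 ± 2.72% and 34.6 ± 1.1% for complex I (n = 3 each). mt-Nd6 ranged from 0.723% in control replicate 3 to 2.2% in control replicate 1.

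In these libraries, selected for poly(A), the rRNAs of the mitochondrial ribosome had mean levels of 54.2 and 70.9 FPKM, below every mRNA outside the copied stretch. The small subunit rRNA mt-Rnr1 was 78.75, 47.62 and 47.63 FPKM in control and 39.15, 49.14 and 62.81 FPKM in Setd5sh libraries. The large subunit rRNA mt-Rnr2 was 136.50, 35.29 and 56.49 FPKM in control and 55.99, 35.12 and 106.12 FPKM in Setd5sh libraries. Both were highest in control replicate 1, with overlapping groups. No nuclear copy of either passed the search.

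Of the 22 tRNA genes, 20 were at 0 counts in all 6 libraries. A count of 0 allows up to 3 counts, or 0.0936 to 0.153 CPM (counts scaled to a common library total) depending on the library, for counting error only. mt-Tc, the cysteine tRNA, had 2 counts in control replicate 1 and 0 elsewhere and was not tested. mt-Tp, the proline tRNA at positions 15356 to 15422 on the minus strand, was the exception, with 281, 408 and 232 counts in control and 151, 435 and 454 in Setd5sh libraries. Its whole sequence is printed as the only tRNA gene with more than 2 counts in any library, with the anticodon in capitals.

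mt-Tp: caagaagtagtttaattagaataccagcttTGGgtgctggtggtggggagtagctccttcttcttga

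At 131, 224 and 174 FPKM in control and 109, 235 and 345 FPKM in Setd5sh libraries, mt-Tp was lowest in the libraries numbered 1, unlike the mRNAs. No source used here states whether counting used strand, so reads of mt-Tp and reads from the opposite strand at the same place cannot be told apart. The same limit holds for mt-Nd6.

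The comparison of Setd5sh with control asks whether knockdown of Setd5 went with a change in these transcripts. Of the 37 members, 16 passed the filter of a mean of 1 FPKM (all mRNAs, both rRNAs and mt-Tp), and 0 of the 16 passed edgeR's quasi-likelihood test at an adjusted p of 0.05, beside 0% of the 12199 genes tested. DESeq2 and limma also called 0 members, beside 0 of all genes tested in each. A gene that did not pass was not thereby shown to be unchanged. No member had an unadjusted p under 0.05 in edgeR, where 149 genes, or 1.22% of all tested, did. The smallest unadjusted p among the members was 0.0977, for mt-Nd4l, and every adjusted p was 0.995. The groups overlapped for all 16 members, and did not overlap for 5.21% of all genes tested. With no filter on low values, edgeR called 73 of 29462 genes, or 0.248%, and 0 members. Of the 16 members above, 4 then had an unadjusted p under 0.05, and the smallest adjusted p was 0.0845, in edgeR's quasi-likelihood test. The share of all genes with such an unadjusted p in that fit is not given here, so the 4 cannot be set against it.

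All 13 mRNAs had a log2 difference below 0, from -0.30 ± 0.463 (SE) for mt-Nd1 to -1.83 ± 0.976 for mt-Nd4l, with a median of -0.53 where all tested genes had a median of -0.043. Among the mRNAs outside the copied stretch the values were -0.30 for mt-Nd1, -0.36 ± 0.503 for mt-Cytb, -0.45 ± 0.47 for mt-Nd2, -0.53 ± 0.546 for mt-Nd5 and -0.93 ± 0.692 for mt-Nd6, each less than 1.5 times its SE. mt-Co1 was at -0.42 ± 0.399 and mt-Nd4 at -0.45 ± 0.501. Inside the stretch they were -0.37 ± 0.604 for mt-Nd3, -0.60 ± 0.582 for mt-Co2, -0.66 ± 0.595 for mt-Atp6, -0.68 ± 0.468 for mt-Co3, -1.42 ± 1.32 for mt-Atp8 and the value for mt-Nd4l above. The rRNAs were at -0.23 ± 0.272 (mt-Rnr1) and -0.24 ± 0.561 (mt-Rnr2), and mt-Tp was at 0.37 ± 0.395.

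The common sign rested on 1 library. Control replicate 1 was the highest of the 6 libraries for 12 of 13 mRNAs, mt-Nd3 being the exception, and for both rRNAs, while it was the highest for 31.9% of all genes tested. Setd5sh replicate 3 was the highest of the other 5 libraries for 8 of 13 mRNAs, and leaving it out alone gave a median of -0.93. No fit left out both of these libraries. Without control replicate 1, 11 of 13 mRNAs were above 0, all but mt-Co3 and mt-Nd3. The median was then 0.29, with an all-gene median of 0.006. mt-Co3 and mt-Nd3 then stood at -0.09 ± 0.357 and -0.36 ± 0.624. Among the others mt-Co1 was at 0.14 ± 0.242, mt-Cytb at 0.38 ± 0.322 and mt-Nd6 at 0.53 ± 0.217. mt-Nd6 had an unadjusted p of 0.0345 and an adjusted p of 0.997 in edgeR's quasi-likelihood test. In that fit 1 of 16 members and 361 of all 12199 genes tested had an unadjusted p under 0.05. Both rRNAs were above 0 as well, at 0.11 ± 0.183 and 0.54 ± 0.388. Again 0 members passed, beside 0% of all genes tested. mt-Tp kept its sign, at 0.22 ± 0.381, and was at -0.04 without Setd5sh replicate 3. With trends on GC content and length removed, as described below, it was at 0.65 ± 0.586. With the replicate block added it was at 0.65 ± 0.171. In that fit its unadjusted p was 0.00929 and the smallest adjusted p of any member was 0.69 in edgeR's quasi-likelihood test. The share of all genes with an unadjusted p under 0.05 in that fit is not given here.

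**Figure D4:**
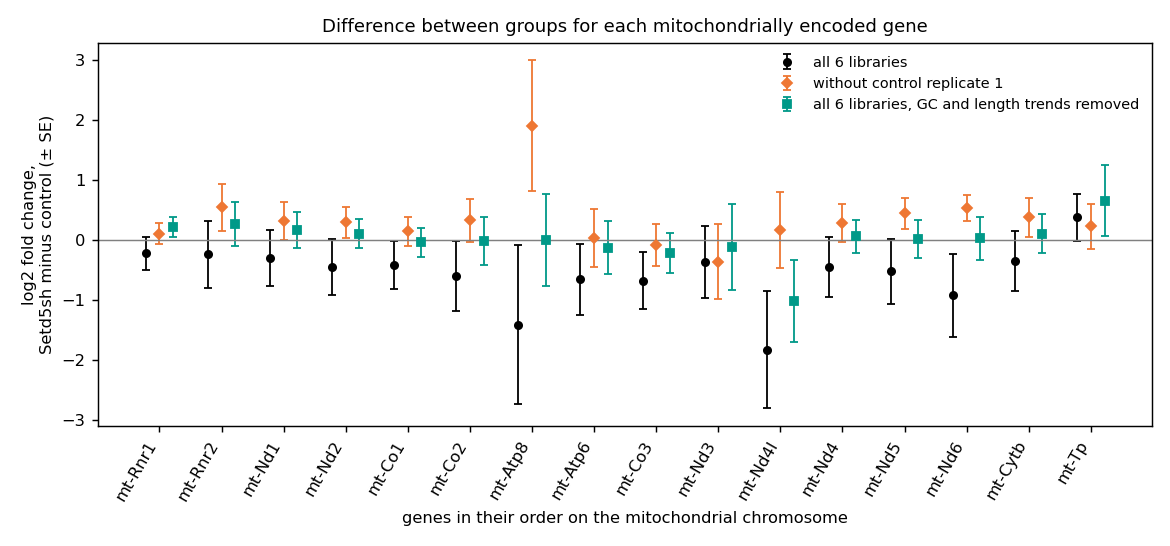
Log2 difference between Setd5sh and control for each tested mitochondrially encoded gene (y axis, ± SE), in chromosome order (x axis), with all 6 libraries, without control replicate 1, and with trends on GC content and length removed. All 13 mRNAs lie below 0 with all libraries, and 11 of 13 above 0 without control replicate 1.

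Libraries with the same replicate number were also set against each other, although no label states that they are pairs. For the 7 mRNAs not wholly inside the copied stretch, the Setd5sh library held 28.4% to 40.9% of the FPKM of its control in the libraries numbered 1. In those numbered 2 it held 89.4% to 101%, and in those numbered 3 it held 136% to 185%. The same-numbered libraries thus went down, nearly level and up. With the replicate number as a block, the median of the 13 mRNAs was -0.32, and 0 members passed, beside 0 of the 12199 genes tested.

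A joint trend on GC content and gene length moved with these differences, and the part of each alone was not tested. Mitochondrial mRNAs had a GC content of 31.9% to 41.1%, with a median of 37.1%. In control replicate 1 the trend of all genes on GC content and length lay 0.66 to 1.54 log2 units above the average library at the 16 members, and in the other 5 libraries between -0.63 and 0.03. With those trends removed, 9 of 16 members were above 0 and the mRNA median was -0.006, and with the replicate block added 12 of 16 were above 0, at a median of 0.07. The nuclear rRNA genes held 0.184%, 0.586% and 0.208% of counts in control and 0.234%, 0.503% and 0.115% in Setd5sh libraries, where the libraries numbered 2 were high, and so did not follow the mitochondrial shares. The part of the RNA mix that Malat1 reflects in the level of control replicate 1 was not tested.

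Nuclear genes that make, process and translate mitochondrial RNA were read from 6 lists, of which 179 genes were tested and 0 passed. Of all genes tested, 42.6% were above 0, and 51.5% without control replicate 1. Among genes for transcription and upkeep of mitochondrial DNA, 8 of 20 were above 0, with a median log2 difference of -0.067, which turned to 0.093 without control replicate 1. The polymerase gene Polrmt was 6.25, 9.16 and 8.86 FPKM in control and 9.21, 9.77 and 8.93 FPKM in Setd5sh libraries, lowest in control replicate 1, with a log2 difference of 0.20 ± 0.171, or 0.074 without that library. Tfam, which packages and helps to transcribe mitochondrial DNA, was 23.65, 16.08 and 14.22 FPKM in control and 16.29, 15.67 and 18.10 FPKM in Setd5sh libraries, highest in control replicate 1, at -0.13 ± 0.222, or 0.17 without that library. The members of this list with the smallest p in each direction were Atad3a (0.22 ± 0.159) and Top3a (0.20 ± 0.152), and Primpol (-0.43 ± 0.324) and Mterf1b (-0.40 ± 0.404). Without control replicate 1 these were at 0.14, 0.13, -0.049 and -0.038.

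Of the genes for processing and stability of mitochondrial RNA, 22 of 38 were above 0, with a median of 0.047, or 0.046 without control replicate 1. Elac2, which trims the 3′ ends of tRNAs, was at 0.28 ± 0.19 and the pseudouridine synthase gene Trub2 at 0.19 ± 0.138. Fastkd1 was at -0.23 ± 0.168. Without control replicate 1 these were at 0.17, 0.14 and -0.16. Pnpt1, a subunit of the mitochondrial RNA degrading complex, was 21.15, 9.70 and 9.05 FPKM in control and 8.82, 8.61 and 11.93 FPKM in Setd5sh libraries, so that it too was highest in control replicate 1. Its log2 difference was -0.47 ± 0.356 with that library and 0.09 without it. Lrpprc, which binds and stabilises mitochondrial mRNAs, ranged from 14.15 to 17.39 FPKM, at -0.06 ± 0.154, or 0.084 without control replicate 1.

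Of the translation genes, 14 of 27 were above 0, with a median of 0.011, or 0.036 without control replicate 1. The elongation factor gene Tufm was at 0.30 ± 0.206 and the threonine tRNA synthetase gene Tars2 at 0.21 ± 0.134. The release factor genes Mtrf1l and Mtrf1 were at -0.55 ± 0.271 and -0.30 ± 0.274. Without control replicate 1 these were at 0.14, 0.18, -0.29 and -0.10. Mitochondrial ribosomal protein genes were above 0 in 49 of 78 cases, with a median of 0.038 that became -0.032 without control replicate 1. Their members with the smallest p were Mrpl9 (0.19 ± 0.134) and Mrpl12 (0.26 ± 0.2), and Mrpl53 (-0.53 ± 0.445) and Mrpl42 (-0.22 ± 0.193), which without that library were at 0.18, 0.098, -0.55 and -0.044.

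Of 9 regulators of mitochondrial biogenesis 6 were tested, with 3 above 0 and a median of 0.004, or 0.098 without control replicate 1. The coactivator gene Ppargc1a was at 0.07 to 0.24 FPKM and was not tested. Its relatives Pprc1 and Ppargc1b were at 0.22 ± 0.143 and -0.25 ± 0.31, and the transcription factor genes Nrf1 and Gabpa at 0.14 ± 0.143 and -0.34 ± 0.298. Leaving out control replicate 1 put these at 0.15, -0.33, 0.11 and 0.11, so that Gabpa turned. Mitophagy genes had 4 of 10 above 0 and a median of -0.21, which was -0.075 without control replicate 1. The mitophagy receptor gene Bnip3 was 57.04, 67.51 and 55.59 FPKM in control and 29.82, 54.38 and 24.91 FPKM in Setd5sh libraries. Every Setd5sh library was thus below every control library, the nearest values being 54.38 and 55.59 FPKM. The groups did not overlap for 5.21% of all genes tested, nor for Tars2, Mtrf1l, Mrpl9 and Pprc1 among the genes named from the lists. The log2 difference of Bnip3 was -0.73 ± 0.276, with an unadjusted p of 0.0295 and an adjusted p of 0.995 in edgeR's quasi-likelihood test. Of all genes tested, 1.22% had an unadjusted p under 0.05 in that test. Bnip3 was at -0.73 ± 0.267 without control replicate 1, and ran from -1.1 to -0.52 as single libraries were left out. Its relative Bnip3l was 48.09, 39.19 and 33.72 FPKM in control and 27.06, 34.40 and 29.02 FPKM in Setd5sh libraries, at -0.43 ± 0.185, or -0.25 ± 0.136 without control replicate 1. Phb2 (0.19 ± 0.196) and Bcl2l13 (0.08 ± 0.133) had the smallest p among those above 0, and were at 0.034 and 0.051 without that library.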

How the data were processed

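The authors deposited 1 table that gives every library a whole-number read count and an FPKM value for each gene, beside exonic lengths. HISAT2, SAMtools, HTSeq and DESeq2 on mm10 are listed in the submitters' processing notes, without roles or versions. The deposited FPKM was recomputed from count, gene length and column total to within 0.005. Of the identifiers, 55140 (99.5%) were found in GENCODE M21, which gave symbols, positions, sequences and GC content.

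Counts of 12199 genes with a mean of at least 1 FPKM were tested with edgeR 4.0.16 (quasi-likelihood, TMM, Benjamini-Hochberg, threshold 0.05, two-sided, no block). The test was also run on simulated data with 200 changed genes, whose recovery is not given here. Fold changes are Setd5sh minus control, and SE is the log2 difference over the square root of F. Alternatives used DESeq2 1.42.0, limma 3.58.1 on log2(FPKM + 1) or log2(FPKM + 0.1), other scalings and filters, offsets from splines with 5 degrees of freedom on GC content and length, and left-out libraries. Copies were searched with BLAST+ 2.17.0.

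Deviations of same-numbered libraries from their group means correlated at 0.185, 0.69 and 0.127 over genes, all above 0.1, so the numbers were taken as pairs, a reading of the data that no label states. With Setd5sh replicate 3, control replicate 1 correlated at 0.191.

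The members and the 6 nuclear lists were chosen with earlier results of these data known. Named genes were all members with counts, Setd5, Polrmt, Tfam, Lrpprc, Ppargc1a, and up to 2 genes per list and direction with the smallest p.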

Additional observations from a re-analysis of the deposited data

How the results depend on the processing

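With no filter on low values 73 of 29462 genes (0.248%) passed, and 0 members did; mt-Atp8 fell out under edgeR's own filter. The mRNA median was 0.069 with GC and length offsets plus the replicate block, 0.38 without both libraries numbered 1 (added after seeing the data, as was the split by the copied stretch), and, without control replicate 1, 0.38 outside and 0.10 inside the copied stretch. The rRNA median was 0.24 with the offsets, 0.23 with the block added and 0.44 without both libraries numbered 1. The share of counts in tRNAs alone differed by 0.000353 points. With offsets alone, and then with the block, log2 differences turned to 0.21 and 0.21 for mt-Rnr1, 0.27 and 0.25 for mt-Rnr2, 0.17 and 0.15 for mt-Nd1, 0.10 and 0.11 for mt-Nd2, 0.059 and 0.046 for mt-Nd4, 0.019 and 0.069 for mt-Nd5, 0.023 and 0.11 for mt-Nd6, 0.10 and 0.10 for mt-Cytb, 0.022 and 0.034 for Tfam, and 0.025 and 0.028 for Lrpprc. With the block they turned to 0.047 for mt-Co2, 0.38 for mt-Atp8 and 0.10 for mt-Nd3. Scaled by mitochondrial mRNA counts, mt-Rnr1 was at 0.090, mt-Rnr2 at 0.17, mt-Nd1 at 0.074, mt-Cytb at 0.073 and mt-Nd5 at 0.0072, and Lrpprc was at 0.016 with no filter. The cause of these turns was not tested.

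Leaving out 1 library at a time, the mRNA median ran from -0.93 to 0.29, the rRNA median from -0.59 to 0.32, mt-Tp, the sole tRNA tested, from -0.042 to 0.70 and the share of counts from -0.575 to 0.142 points. Single genes ran from -0.41 to 0.11 (mt-Rnr1), -0.77 to 0.54 (mt-Rnr2), -0.73 to 0.31 (mt-Nd1), -0.79 to 0.29 (mt-Nd2), -0.71 to 0.14 (mt-Co1), -1.01 to 0.33 (mt-Co2), -2.83 to 1.91 (mt-Atp8), -1.24 to 0.031 (mt-Atp6), -1.10 to 0.11 (mt-Nd3), -2.32 to 0.16 (mt-Nd4l), -0.93 to 0.29 (mt-Nd4), -0.86 to 0.44 (mt-Nd5), -1.36 to 0.53 (mt-Nd6), -0.76 to 0.38 (mt-Cytb), -0.27 to 0.17 (Tfam), -0.69 to 0.089 (Pnpt1), -0.14 to 0.084 (Lrpprc) and -0.55 to 0.11 (Gabpa). mt-Rnr2 also turned without Setd5sh replicate 2 (0.10), as did Lrpprc (0.012), and mt-Nd3 without control replicate 3. With the block alone all 13 mRNAs stayed below 0. No setting put a member past the threshold. Counts under 100 limit mt-Atp8, mt-Nd3 and mt-Nd4l in most libraries.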

Other observations

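Nuclear copies less like the mitochondrial genes took few counts. On chromosome 2, Gm13340, with 97.6% identity to mt-Co1 over the whole gene, had 28 counts in control replicate 1 and 4 to 9 in the other libraries. Gm13341, with 95.9% identity to mt-Co2, had 21 counts in control replicate 1 and 0 to 4 elsewhere, and Gm13339, with 96.7% identity to 510 bases of mt-Nd2, had 1 count in all. On chromosome 13, Gm4076, with 95.2% identity to 954 bases of mt-Nd5, had 3 counts in control replicate 1 and 0 elsewhere. A stretch of 61 bases from mt-Co1 and from Gm13340 is printed to show how these copies differ from the near-identical ones on chromosome 1, with the bases that differ in capitals; counted from the first base of mt-Co1 they are A462G, A468G, T501C and C519T.

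mt-Co1: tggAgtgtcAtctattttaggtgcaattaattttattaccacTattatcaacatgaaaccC

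Gm13340: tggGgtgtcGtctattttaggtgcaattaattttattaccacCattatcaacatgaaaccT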
